A study of Mus musculus with 23 samples.

Results

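Solute carriers were described here over cardiac macrophages of mice before and after myocardial infarction. The members were the protein-coding genes whose name begins with Slc and a number and whose mean FPKM over all 23 libraries was at least 1, which 177 of 371 such genes reached. FPKM is the fragment count of a gene per kilobase of its length and per unit of sequencing depth. The members were thus chosen by their FPKM level over all libraries, which is given below as a description without a test. The cells were Ly6G- CD11b+ cardiac macrophages of C57BL/6 mice, sorted magnetically. MyS7KO mice carried floxed Smad7 alleles together with LyzM-Cre, a Cre recombinase driven by the lysozyme M promoter of myeloid cells, and S7fl/fl littermates carried the floxed alleles without it. Smad7 encodes an inhibitory Smad of TGF-beta signalling. Hearts were taken at baseline and 3 or 7 days after permanent ligation of the left anterior descending coronary artery, an infarct without reperfusion. The MyS7KO groups held 3, 5 and 4 libraries at baseline, day 3 and day 7, and the S7fl/fl groups held 3, 5 and 3. No label says that each library came from a separate heart, so p-values measure the spread between these libraries, which may be technical in part.

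Solute carriers are membrane proteins that move nutrients, ions, metals and metabolites across the plasma membrane and the membranes of organelles, mostly by facilitated diffusion or by coupling to a second solute. Macrophages depend on them for the glucose, amino acids and cystine that feed activation, for the export of lactate, and for the handling of iron, zinc and haem taken up from dying cells. Each member was assigned to a class by the substrate its family is known for, which gave 10 classes with a named substrate and 1 for the other or unassigned members. Of the members, 4 share the Slc name without being carriers: Slc9a3r1 and Slc9a3r2 encode scaffold proteins, and Slc4a1ap and Slc7a6os are named after a neighbour or a binding partner.

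Libraries held 15479402 to 23884938 counts, of which the members took 1.01 to 1.34%. The lowest count of any member in any library was 5. Smad7 averaged 8.38 ± 3.5 FPKM in MyS7KO and 12.4 ± 1.01 in S7fl/fl cells at baseline, 3.22 ± 0.863 against 7.56 ± 0.921 at day 3 and 5.14 ± 1.66 against 13.5 ± 1.48 at day 7 (SD), and its edgeR adjusted p was 0.999, 0.11 and 0.0702. Cre removes only the floxed stretch, and reads from the remainder of Smad7 are part of these values. All 13 macrophage markers were detected, with summed levels of 8580 to 18770 FPKM per library. Xist reads were present in 1 of 3, 3 of 5 and 4 of 4 MyS7KO libraries at baseline, day 3 and day 7, and in 2 of 3, 2 of 5 and 0 of 3 S7fl/fl libraries, so at day 7 a difference of genotype and one of sex cannot be told apart. At day 3, 3 libraries held reads of both sexes (MyS7KO replicates 2 and 3 and S7fl/fl replicate 4). S7fl/fl day 7 replicate 2 stood apart with 251.5 FPKM summed over erythroid markers, against 3.87 and 5.99 in the other S7fl/fl libraries of day 7.

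The most abundant member was Slc25a5, the ADP/ATP carrier of the inner mitochondrial membrane, at a mean of 176 FPKM over all libraries. Slc3a2, the heavy chain that carries several amino acid transporters to the cell surface, followed at 164 FPKM, and Slc11a1, a divalent metal transporter of phagosomes, at 119. Next came Slc25a3, the mitochondrial phosphate carrier, at 106, Slc15a3, a lysosomal peptide and histidine transporter, at 92.6, and the scaffold gene Slc9a3r1 at 77.8 FPKM. The taurine transporter gene Slc6a6 (73), the neutral amino acid transporter genes Slc38a2 (66.5) and Slc7a8 (61.7) and the zinc importer gene Slc39a1 (66.1) completed the 10 highest. Together these 10 held 37.9% of the members' summed FPKM, and the median member stood at 7.10 FPKM. At the lower edge of the rule, Slc22a18 (1.07), Slc22a17 (1.05) and Slc18b1 (1.05) were just inside and Slc25a43 (0.999), Slc4a11 (0.950) and Slc52a3 (0.896) just outside. A mean over all libraries can hide a low group: 160 members reached a group mean of 1 FPKM in all 6 groups, and the other 17 fell under it in at least 1. Those 17 met the rule through the groups in which they were higher, so their changes between such groups and the lower ones are descriptions and support nothing. The members' summed level was 2077 ± 19.7 FPKM at baseline, 2944 ± 74.1 at day 3 and 2589.9 ± 195 at day 7 in MyS7KO cells, and 2046 ± 123, 2980.1 ± 70.5 and 2812 ± 242 in S7fl/fl cells. Amino acid and peptide carriers and mitochondrial carriers made up the largest shares of this sum at every time, each between 22.3 and 26.7% by group mean.

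Most members differed between the infarcted and the uninjured heart, in both genotypes, whose time courses share no library. At day 3 against baseline 78 members rose and 44 fell in MyS7KO cells, and 79 rose and 43 fell in S7fl/fl cells (edgeR adjusted p under 0.05). Over all 16545 genes tested the shares were 30.7% higher and 35.2% lower in MyS7KO cells, and 29.9% higher and 34.1% lower in S7fl/fl cells. In both genotypes 74 members rose (41.8% of 177) and 40 fell (22.6%), against 26.3% and 29.9% of all genes tested. Of protein-coding genes with a mean of at least 1 FPKM, which is the population the rule draws from, 37.4% rose and 25.3% fell in both genotypes, so the members' shares lay close to that background. The median log2 change of the members was 0.15 in MyS7KO and 0.26 in S7fl/fl cells, against -0.10 and -0.06 over all genes tested and 0.15 and 0.15 over those protein-coding genes. Of the 17 members under 1 FPKM in a group, 4 were among the 74 and 11 among the 40. A further 16 members were called in a single genotype. At day 7 against baseline 75 members rose and 32 fell in MyS7KO cells (22.2% and 21.8% of all genes), and 78 rose and 38 fell in S7fl/fl cells (24.8% and 25.4%). In both genotypes 70 rose (39.5%) and 28 fell (15.8%), against 19.3% and 18.2% of all genes, and 27.3% and 16.8% of the protein-coding genes over the threshold. Of the 17 members under 1 FPKM in a group, 5 were among the 70 and 8 among the 28. The members' median log2 change at day 7 was 0.23 in MyS7KO and 0.24 in S7fl/fl cells, against -0.01 and -0.02 over all genes. Between day 3 and day 7 fewer members moved: 33 rose and 41 fell in MyS7KO cells (20.5% and 19.1% of all genes), 23 and 23 in S7fl/fl cells (11.5% and 10.1%), and 18 and 18 in both. The counts in both genotypes are 10.2% each way, against 9.33% and 8.6% of all genes and 11.3% and 13.2% of the protein-coding genes over the threshold. Of the 17 members under 1 FPKM in a group, 6 were among the 18 that rose and 0 among the 18 that fell. The median change there was -0.02 in MyS7KO and -0.06 in S7fl/fl cells, against 0.08 and 0.01 over all genes and -0.03 and -0.04 over those protein-coding genes. Day 3 was the time of the highest group mean for 83 members in MyS7KO and 80 in S7fl/fl cells, baseline for 55 and 51, and day 7 for 39 and 46, with the same time in both genotypes for 143 members.

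**Figure D1:**
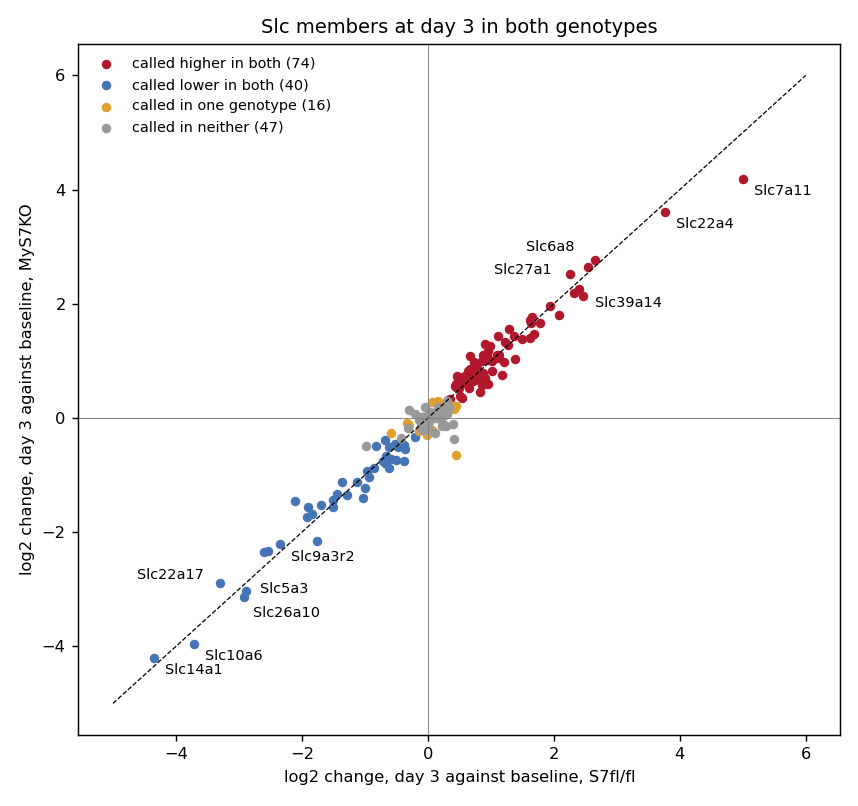
Log2 change of each member from baseline to day 3 (day 3 over baseline), MyS7KO on the vertical and S7fl/fl on the horizontal axis, 1 point per member, with colour for the call. The 74 members called higher and the 40 called lower in both genotypes lie along the diagonal, 16 were called in a single genotype and 47 in neither.

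The classes differed in how many of their members moved. Beside the counts below, 37.4% of the protein-coding genes over the threshold rose and 25.3% fell at day 3 in both genotypes. Over all genes tested these shares were 26.3% and 29.9%. At day 3, 17 of 24 amino acid and peptide carriers rose (70.8%) and 2 fell (8.33%) in both genotypes. Of 32 mitochondrial carriers 16 rose (50%) and 4 fell (12.5%). Metal ion carriers counted 11 of 24 higher (45.8%) and 2 lower (8.33%). Nucleoside and nucleotide sugar carriers counted 7 of 19 higher (36.8%) and 3 lower (15.8%), and sugar carriers 4 of 12 higher (33.3%) and 2 lower (16.7%). The higher shares of these last 2 classes lay near that of the protein-coding genes over the threshold. Among lipid and acyl group carriers 3 of 5 rose (60%) and 2 fell (40%), and both that fell averaged under 1 FPKM at day 3. Those met the rule through their higher groups, so their direction is tied to the rule. Among vitamin, choline and haem carriers 3 of 11 rose (27.3%) and 4 fell (36.4%). Of the other or unassigned members 5 of 9 rose (55.6%) and 2 fell (22.2%). Carboxylate carriers counted 2 of 7 higher (28.6%) and 4 lower (57.1%). The inorganic ion class counted 4 of 25 higher (16%) and 8 lower (32%). That class includes genes that are not carriers: Slc9a3r1, which rose, Slc9a3r2, which fell, and Slc4a1ap. Among organic ion and amine carriers 2 of 9 rose (22.2%) and 7 fell (77.8%), but 6 of those 7 averaged under 1 FPKM at day 3 in both genotypes. These 6 met the rule through their baseline levels, so their direction is tied to the rule. Among risers, Slc7a11, Slc39a8, Slc9a7 and Slc22a4 averaged under 1 FPKM at baseline and met the rule through their later levels. Their direction is tied to the rule too, with 1 in each of the amino acid, metal ion, inorganic ion and organic ion classes. No test compared the classes with each other, and members named below beyond those with the largest changes or the lowest p-values were chosen after their values were seen.

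**Figure D2:**
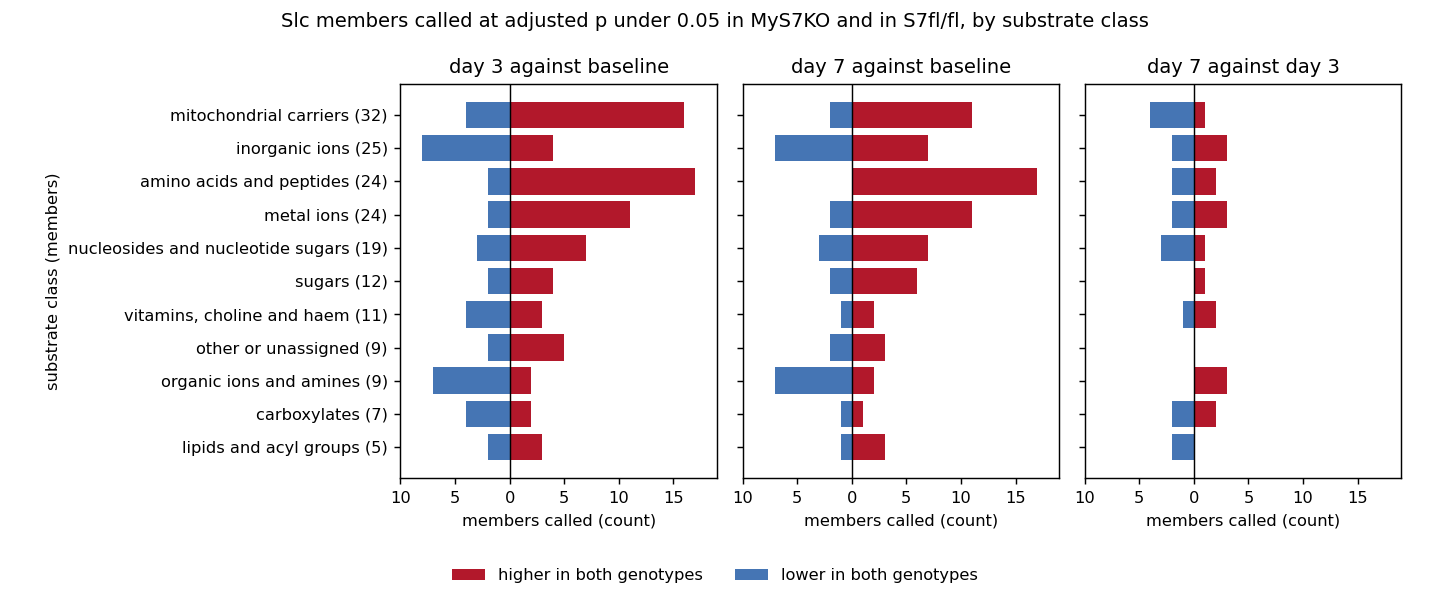
Number of members called higher or lower in both genotypes (edgeR adjusted p under 0.05) by substrate class, for day 3 over baseline, day 7 over baseline and day 7 over day 3. At day 3 over baseline 17 of the 24 amino acid and peptide carriers (70.8%) and 16 of the 32 mitochondrial carriers (50%) were called higher. Of the 17, 1 averaged under 1 FPKM at baseline. Of protein-coding genes with a mean of at least 1 FPKM 37.4% were called higher.

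Amino acid and peptide carriers gave the largest rise of any member. Slc7a11 (chr3:49892526-50443614, minus strand, GRCm38) encodes the light chain of the cystine/glutamate antiporter, which supplies cysteine for glutathione and works as a heterodimer with the Slc3a2 product. Slc7a11 measured 1.28, 0.964 and 0.356 FPKM in the MyS7KO libraries at baseline, 24.9, 14.4, 10.3, 15.2 and 13.8 at day 3 and 4.94, 9.16, 7.77 and 3.91 at day 7. The Slc7a11 values of the S7fl/fl libraries were 1.11, 0.476 and 0.468 FPKM at baseline, 20.3, 34.5, 16.8, 23.9 and 14.8 at day 3 and 5.44, 18.3 and 6.82 at day 7. In each genotype every library of day 3 and of day 7 lay above every baseline library. Day 3 lay above day 7 without overlap in MyS7KO cells, and in S7fl/fl cells 1 day 7 library reached into the range of day 3. Day 3 exceeded baseline by log2 4.19 ± 0.56 in MyS7KO and 5.01 ± 0.59 in S7fl/fl cells, edgeR adjusted p = 3.12e-06 and 6.31e-07. At day 7 the change from baseline was log2 2.90 ± 0.54 in MyS7KO and 3.90 ± 0.58 in S7fl/fl cells, edgeR adjusted p = 0.000278 and 2.22e-05. Slc7a11 is among the 17 members with a group mean under 1 FPKM, here at baseline (0.868 ± 0.471 FPKM in MyS7KO and 0.685 ± 0.369 in S7fl/fl cells, SD). Slc7a11 met the rule through its later levels, so its rise is a description and supports nothing. Its partner Slc3a2 (chr19:8706882-8723369, minus strand) moved much less from a far higher level. Slc3a2 stood, in MyS7KO libraries, at 109, 104 and 111 FPKM at baseline, 185, 209, 170.0, 163 and 175 at day 3 and 152, 207, 173 and 173 at day 7. Slc3a2 in the S7fl/fl libraries was at 111, 135 and 94.2 FPKM at baseline, 168, 171, 185, 202 and 179.7 at day 3 and 171, 232 and 198 at day 7. Baseline libraries were the lowest in each genotype, without overlap, and day 3 and day 7 overlapped. The rise at day 3 was log2 0.74 ± 0.13 in MyS7KO and 0.68 ± 0.13 in S7fl/fl cells, edgeR adjusted p = 2.21e-05 and 6.04e-05.

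The promoters of this pair are shown because both chains of the antiporter rose at day 3. Each sequence is the RefSeq window (GRCm38.p6) from 250 bases before to 50 bases after the annotated start, written 5′ to 3′ on the strand of the gene (chr3:50443564-50443863, minus strand for Slc7a11 and chr19:8713848-8714147, minus strand for Slc3a2). Capitals mark matches on either strand to TGATGNAA, the core of the amino acid response element bound by ATF4, to TGANNNNGC, the core of the antioxidant response element bound by NRF2, to ACGTG, the core of the hypoxia response element, and to CACGTG, the E-box, which contains ACGTG.
Slc7a11: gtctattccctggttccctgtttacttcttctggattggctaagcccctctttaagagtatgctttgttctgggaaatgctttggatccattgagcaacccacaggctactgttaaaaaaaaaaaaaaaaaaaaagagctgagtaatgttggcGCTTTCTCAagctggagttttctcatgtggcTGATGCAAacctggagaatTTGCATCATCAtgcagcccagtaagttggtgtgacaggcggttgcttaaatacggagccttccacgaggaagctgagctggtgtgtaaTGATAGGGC
Slc3a2: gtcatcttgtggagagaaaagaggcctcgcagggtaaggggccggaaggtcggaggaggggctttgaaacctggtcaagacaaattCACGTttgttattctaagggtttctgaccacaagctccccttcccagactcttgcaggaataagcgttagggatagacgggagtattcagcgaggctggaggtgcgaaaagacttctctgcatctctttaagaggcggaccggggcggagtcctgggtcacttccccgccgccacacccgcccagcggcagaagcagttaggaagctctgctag

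The Slc7a11 window held 2 matches to TGATGNAA and 3 to TGANNNNGC, 1 of which overlaps a TGATGNAA match, and none to the others. The Slc3a2 window held 1 match to ACGTG, read on the opposite strand, and none to the others. Such short strings are common: among 27025 genes with an entry 4.51% held TGATGNAA, 45% TGANNNNGC, 21.8% ACGTG and 8.09% CACGTG in a window of this length. Of the members, 135 had an entry, and 4.44%, 56.3%, 35.6% and 18.5% of them held these strings. Among the 59 members with an entry that rose at day 3 in both genotypes the shares were 3.39%, 61%, 44.1% and 20.3%, and among the 28 that fell they were 10.7%, 50%, 28.6% and 14.3%. A match is a string in a window and not a bound site.

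Glutamine and other neutral amino acids are carried by Slc38a1, a sodium-coupled transporter, and by Slc7a8, a light chain that exchanges large neutral amino acids and also pairs with Slc3a2. Of Slc38a1 the MyS7KO libraries held 3.45, 2.71 and 2.09 FPKM at baseline, 13.4, 14.2, 9.28, 13.5 and 12.6 at day 3 and 10.7, 14.9, 7.26 and 7.86 at day 7. For Slc38a1 the S7fl/fl libraries gave 3.64, 2.87 and 1.73 FPKM at baseline, 13.2, 14.4, 14.9, 14.5 and 11.3 at day 3 and 8.78, 19.6 and 11.4 at day 7. Baseline was lowest without overlap in each genotype, and day 3 and day 7 libraries overlapped (log2 2.20 ± 0.29 in MyS7KO and 2.32 ± 0.29 in S7fl/fl cells, edgeR adjusted p = 2.18e-06 and 1.25e-06 at day 3 over baseline). Slc7a8 measured 34.8, 32.4 and 28.8 FPKM in the MyS7KO libraries at baseline, 94.6, 88.8, 74.3, 85.3 and 78.9 at day 3 and 38.7, 57.2, 31.9 and 33.5 at day 7. The Slc7a8 values of the S7fl/fl libraries were 34.5, 35.6 and 23.3 FPKM at baseline, 91, 92.7, 98.1, 106 and 87.2 at day 3 and 39.3, 79.8 and 52.1 at day 7. The level was highest at day 3 in each genotype, with no overlap with either other time. Slc7a8 rose by log2 1.40 ± 0.20 in MyS7KO and 1.62 ± 0.20 in S7fl/fl cells, edgeR adjusted p = 3.12e-06 and 5.52e-07 at day 3, and from day 3 to day 7 it fell (log2 -1.06 ± 0.18 in MyS7KO and -0.73 ± 0.20 in S7fl/fl cells, edgeR adjusted p = 6.89e-05 and 0.01). Without S7fl/fl day 7 replicate 2 that fall did not pass in S7fl/fl cells (log2 -0.51, edgeR adjusted p = 0.0887), nor without replicate 4 (-0.67, 0.0529). Slc16a10, a carrier of aromatic amino acids, averaged 6.61 ± 0.795, 20.9 ± 2.19 and 15.8 ± 2.08 FPKM in MyS7KO cells at baseline, day 3 and day 7, and 6.87 ± 1.98, 21.3 ± 1.15 and 16.7 ± 2.52 in S7fl/fl cells (log2 1.66 ± 0.15 in MyS7KO and 1.64 ± 0.15 in S7fl/fl cells, edgeR adjusted p = 4.06e-09 and 5e-09 at day 3). Slc15a3 averaged 109 ± 12.8 FPKM at day 3 against 41.9 ± 2.46 at baseline in MyS7KO cells, and 115 ± 13.5 against 41.3 ± 12.5 in S7fl/fl cells (log2 1.38 ± 0.17 in MyS7KO and 1.49 ± 0.17 in S7fl/fl cells, edgeR adjusted p = 3.73e-07 and 1.52e-07). The light chains Slc7a6 and Slc7a7, which exchange cationic for neutral amino acids, rose by log2 1.10 in MyS7KO and 1.10 in S7fl/fl and by log2 1.05 in MyS7KO and 1.11 in S7fl/fl. The arginine transporter genes Slc7a1 (log2 1.00 in MyS7KO and 0.86 in S7fl/fl) and Slc7a2 (log2 1.47 in MyS7KO and 1.68 in S7fl/fl) also rose at day 3. The remaining risers of the class were Slc6a6, Slc38a10, Slc43a2, Slc15a4, Slc38a7, Slc36a4 and Slc17a5, with log2 changes between 0.35 and 0.96. Both members that fell belong to the Slc38 family of neutral amino acid carriers. They were Slc38a2 (log2 -0.75 in MyS7KO and -0.38 in S7fl/fl) and Slc38a9, the lysosomal arginine sensor (log2 -0.74 in MyS7KO and -0.51 in S7fl/fl). Slc1a5, Slc36a1, Slc7a5, Slc15a2 and Slc38a6 were called in neither genotype at day 3. At day 7 over baseline 17 of the 24 were higher in both genotypes (70.8%), against 27.3% of the protein-coding genes over the threshold. Of these 17, 1 averaged under 1 FPKM at baseline.

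A list of 17 genes of the amino acid and redox stress response was set beside these carriers, chosen with earlier results of these data known. At day 3 in both genotypes 6 rose and 2 fell, with a median log2 change of 0.09 in MyS7KO and 0.26 in S7fl/fl cells. Over all genes tested 26.3% rose and 29.9% fell, and of the protein-coding genes over the threshold 37.4% and 25.3%. Psat1, an enzyme of serine synthesis, averaged 9.6 ± 0.752 FPKM at day 3 against 2.48 ± 0.53 at baseline in MyS7KO cells, and 8.53 ± 1.09 against 2.49 ± 0.342 in S7fl/fl cells. Atf3, a stress-induced transcription factor that is also an immediate early gene, was at 195 ± 26.3 against 1110.2 ± 118 FPKM in MyS7KO cells, and at 166 ± 13.2 against 1082 ± 81.7 in S7fl/fl cells (log2 -2.51 ± 0.11 and -2.70 ± 0.11, edgeR adjusted p = 8.04e-14 and 3.08e-14). At day 7 over baseline 5 of the list rose and 2 fell, and 2 rose and 3 fell at day 7 over day 3. All genes tested gave 19.3% higher and 18.2% lower at day 7 over baseline, and 9.33% and 8.6% at day 7 over day 3.

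Sugar carriers and carboxylate carriers stand at both ends of glycolysis, at glucose entry and at lactate exit. Slc2a1 (chr4:119108711-119137983, plus strand) encodes the widespread facilitative glucose transporter of the plasma membrane. Slc2a1 stood, in MyS7KO libraries, at 17.9, 19.6 and 11.9 FPKM at baseline, 66.8, 59, 50.02, 53.9 and 58.8 at day 3 and 41.1, 56.5, 47.7 and 37.3 at day 7. Slc2a1 in the S7fl/fl libraries was at 16.6, 15.8 and 10.7 FPKM at baseline, 54.8, 73.9, 50.8, 67.5 and 53.7 at day 3 and 41.9, 64.1 and 54.2 at day 7. Baseline libraries were lowest in each genotype, with no overlap with day 3 or day 7 (log2 1.81 ± 0.19 in MyS7KO and 2.08 ± 0.20 in S7fl/fl cells, edgeR adjusted p = 5.15e-08 and 9.63e-09 at day 3, and log2 1.48 ± 0.20 in MyS7KO and 1.92 ± 0.21 in S7fl/fl cells, edgeR adjusted p = 3.51e-06 and 2.04e-07 at day 7). Slc16a3 (chr11:120948480-120960868, plus strand) encodes the monocarboxylate transporter that exports lactate from glycolytic cells. Of Slc16a3 the MyS7KO libraries held 12.9, 10.7 and 9.36 FPKM at baseline, 67.9, 74.1, 69, 65.6 and 64.3 at day 3 and 26, 31, 35.9 and 30.9 at day 7. For Slc16a3 the S7fl/fl libraries gave 13, 15.9 and 10.6 FPKM at baseline, 59.3, 84.4, 60.5, 104 and 73.1 at day 3 and 34.1, 42.7 and 40.1 at day 7. The order was baseline, then day 7, then day 3, with no overlap between any of them within a genotype. Slc16a3 rose by log2 2.64 ± 0.18 in MyS7KO and 2.54 ± 0.18 in S7fl/fl cells, edgeR adjusted p = 3.63e-11 and 6.6e-11 at day 3, and from day 3 to day 7 it fell (log2 -1.13 ± 0.15 in MyS7KO and -0.96 ± 0.16 in S7fl/fl cells, edgeR adjusted p = 3.44e-06 and 0.000197).

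The promoters of this pair, chr4:119108495-119108794, plus strand for Slc2a1 and chr11:120948817-120949116, plus strand for Slc16a3, are shown because both genes rose at day 3 together with most of the hypoxia genes below, with capitals marking the same strings as above.
Slc2a1: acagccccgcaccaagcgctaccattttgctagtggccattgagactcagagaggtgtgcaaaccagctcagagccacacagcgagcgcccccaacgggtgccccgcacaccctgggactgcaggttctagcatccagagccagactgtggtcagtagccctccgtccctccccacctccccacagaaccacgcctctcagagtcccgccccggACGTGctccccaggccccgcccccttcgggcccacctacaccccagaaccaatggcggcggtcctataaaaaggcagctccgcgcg
Slc16a3: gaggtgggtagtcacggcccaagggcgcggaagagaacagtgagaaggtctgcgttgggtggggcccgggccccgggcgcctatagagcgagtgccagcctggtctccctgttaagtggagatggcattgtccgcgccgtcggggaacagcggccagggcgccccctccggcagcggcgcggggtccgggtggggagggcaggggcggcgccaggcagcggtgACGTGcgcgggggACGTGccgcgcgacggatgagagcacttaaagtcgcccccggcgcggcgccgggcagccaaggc

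The Slc2a1 window held 1 match to ACGTG and the Slc16a3 window 2, and neither held another of the strings. For Slc3a2 and Slc16a3 the RefSeq start lies within the span of the gene in the deposited table.

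Of 15 hypoxia response genes, a list also chosen with earlier results known, 9 rose and 3 fell at day 3 in both genotypes, with a median log2 change of 1.03 in MyS7KO and 1.34 in S7fl/fl cells. At day 7 over baseline 8 rose and 2 fell, and 2 rose and 6 fell at day 7 over day 3. Over all genes tested the shares higher and lower were 26.3% and 29.9% at day 3 and 19.3% and 18.2% at day 7 over baseline. At day 7 over day 3 they were 9.33% and 8.6%. Of the protein-coding genes over the threshold 37.4% rose and 25.3% fell at day 3. Pgk1, a glycolytic enzyme, averaged 37.9 ± 3.46, 293 ± 22.9 and 105 ± 21.1 FPKM in MyS7KO cells at baseline, day 3 and day 7, and 39.8 ± 0.846, 314 ± 59.8 and 132 ± 17.5 in S7fl/fl cells. Vegfa, the endothelial growth factor, averaged 11.7 ± 3.98, 127 ± 16.7 and 88.5 ± 11.9 FPKM in MyS7KO and 13 ± 3.28, 141 ± 33.4 and 104 ± 12.9 in S7fl/fl cells.

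Slc37a2, a sugar phosphate exchanger of the endoplasmic reticulum that macrophages express strongly, was the sugar carrier with the largest rise. Slc37a2 measured 7.42, 8.91 and 9.65 FPKM in the MyS7KO libraries at baseline, 43, 41.6, 35.3, 43.8 and 44 at day 3 and 35.3, 45.5, 30.4 and 34.8 at day 7. The Slc37a2 values of the S7fl/fl libraries were 8.86, 8.28 and 7.41 FPKM at baseline, 39.4, 40.00, 49.1, 44.6 and 42.1 at day 3 and 29.5, 47 and 40.4 at day 7. Day 3 and day 7 lay above baseline without overlap in each genotype and overlapped each other (log2 2.26 ± 0.15 in MyS7KO and 2.40 ± 0.15 in S7fl/fl cells, edgeR adjusted p = 3.21e-11 and 1.59e-11 at day 3). The hexose transporter genes Slc2a6 (log2 1.27 in MyS7KO and 1.27 in S7fl/fl) and Slc2a8 (log2 0.52 in MyS7KO and 0.50 in S7fl/fl) rose as well. Slc2a3, the high-affinity glucose transporter, fell (log2 -1.36 in MyS7KO and -1.28 in S7fl/fl), and so did Slc5a3, the sodium-coupled myo-inositol transporter that cells use for osmotic balance. Slc5a3 stood, in MyS7KO libraries, at 12.2, 22.8 and 16.9 FPKM at baseline, 1.88, 1.78, 2.49, 2.31 and 2.16 at day 3 and 3.9, 2.99, 4.04 and 3.75 at day 7. Slc5a3 in the S7fl/fl libraries was at 13.8, 15.9 and 17.4 FPKM at baseline, 2.33, 1.91, 2.28, 1.88 and 2.08 at day 3 and 3.28, 3.48 and 2.56 at day 7. The baseline libraries were far above the rest, and day 7 lay above day 3 without overlap within each genotype. Its change at day 3 was log2 -3.03 ± 0.16 in MyS7KO and -2.89 ± 0.16 in S7fl/fl cells, edgeR adjusted p = 7.36e-13 and 1.47e-12. Mrps6 lies over Slc5a3 on the same strand and held 238 counts per library on average against 1343 of Slc5a3, so the assignment of reads between them is uncertain. Slc45a4, Slc37a4, Slc37a3, Slc2a9 and Slc37a1 were called in neither genotype at day 3. Besides Slc16a3, the lactate and pyruvate carrier gene Slc16a1 rose (log2 0.71 in MyS7KO and 0.86 in S7fl/fl), while Slc16a7, Slc16a11, Slc16a13 and Slc13a3 fell. Of these, Slc16a11 averaged under 1 FPKM at day 3 in both genotypes, so its fall is a description. Slc13a3, the sodium-coupled carrier of dicarboxylates such as succinate, averaged 4.89 ± 0.639, 1.09 ± 0.251 and 2.58 ± 0.52 FPKM in MyS7KO cells at baseline, day 3 and day 7, and 4.25 ± 0.451, 1.24 ± 0.147 and 2.41 ± 0.267 in S7fl/fl cells. Its fall at day 3 was log2 -2.16 ± 0.17 in MyS7KO and -1.76 ± 0.17 in S7fl/fl cells, edgeR adjusted p = 2.64e-10 and 5.98e-09, and from day 3 to day 7 it rose by log2 1.24 in MyS7KO and 0.96 in S7fl/fl.

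**Figure D3:**
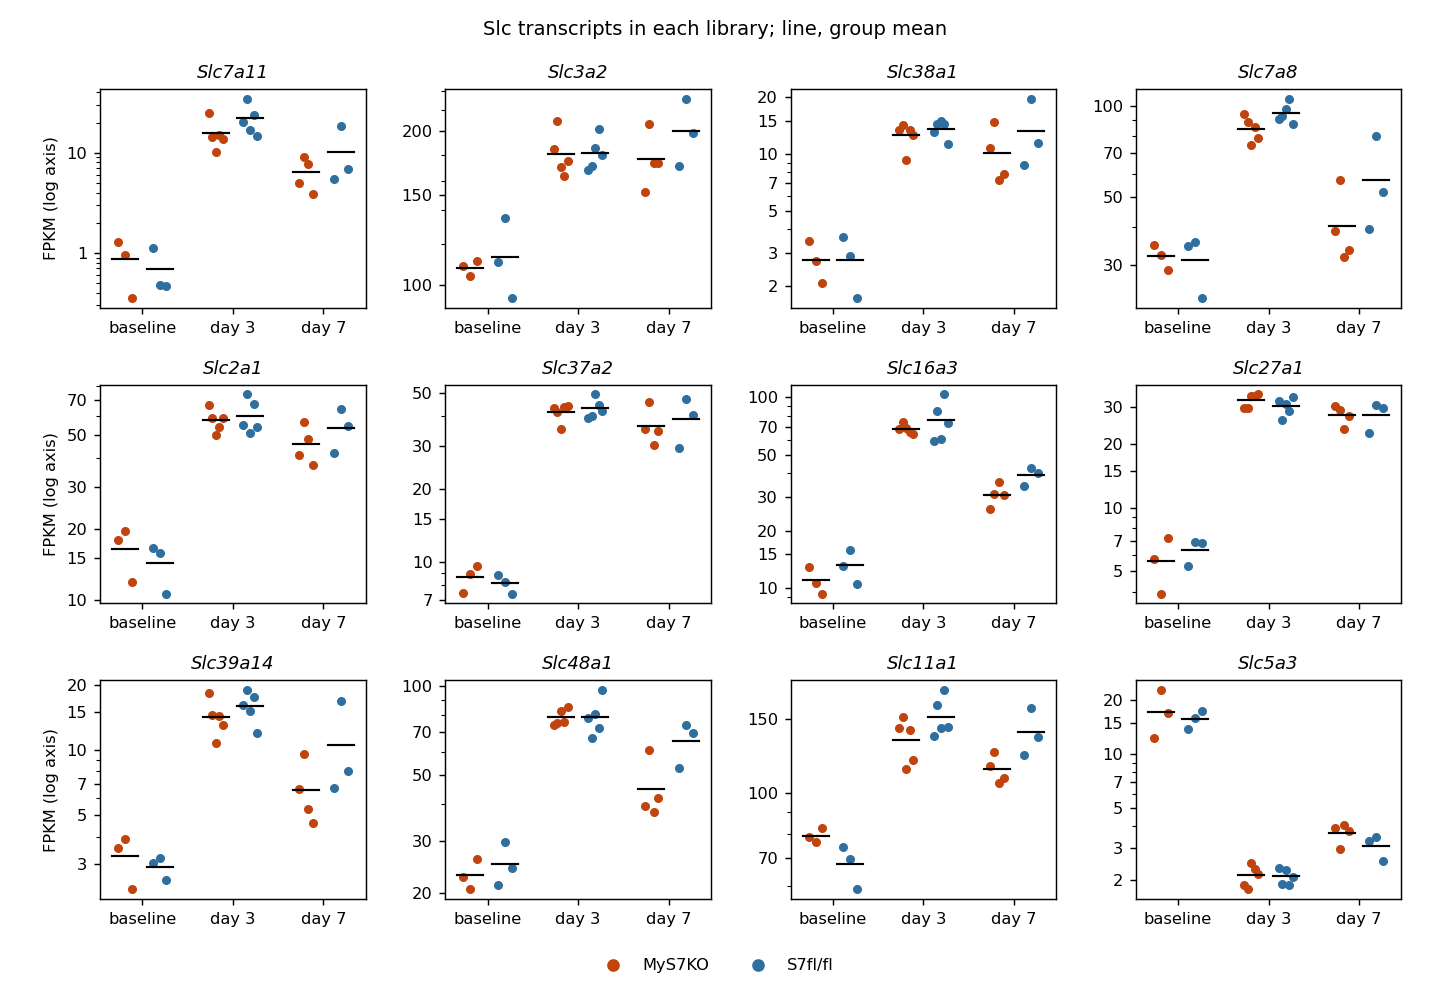
FPKM per library (log axis) of 12 members at baseline, day 3 and day 7, with MyS7KO left of S7fl/fl at each time and a bar at the group mean. Of these, 11 are higher at day 3 than at baseline in each genotype and Slc5a3 is lower. Among the 11, all but Slc3a2 have a lower group mean at day 7 than at day 3 in both genotypes.

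The lipid class was small and each of its 5 members was called in both genotypes at day 3. Slc27a1 (chr8:71568882-71587302, plus strand), a fatty acid transport protein with acyl-CoA synthetase activity, stayed high to day 7. Of Slc27a1 the MyS7KO libraries held 5.71, 3.93 and 7.18 FPKM at baseline, 29.6, 29.7, 33.7, 33.7 and 34.3 at day 3 and 30.2, 28.9, 23.6 and 27.2 at day 7. For Slc27a1 the S7fl/fl libraries gave 5.29, 6.91 and 6.83 FPKM at baseline, 31.9, 25.9, 31, 28.8 and 33.2 at day 3 and 22.6, 30.5 and 29.5 at day 7. Baseline was lowest without overlap in each genotype, and the later times overlapped (log2 2.52 ± 0.16 in MyS7KO and 2.26 ± 0.16 in S7fl/fl cells, edgeR adjusted p = 1.33e-11 and 6.3e-11 at day 3, and log2 2.30 ± 0.16 in MyS7KO and 2.13 ± 0.17 in S7fl/fl cells, edgeR adjusted p = 2.01e-10 and 9.6e-10 at day 7). Slc27a4, a second fatty acid transport protein, rose by log2 1.01 in MyS7KO and 0.95 in S7fl/fl at day 3 and Slc33a1, the acetyl-CoA transporter of the endoplasmic reticulum, by log2 1.18 in MyS7KO and 0.96 in S7fl/fl. From day 3 to day 7 Slc27a4 (log2 -0.68 in MyS7KO and -0.49 in S7fl/fl) and Slc33a1 (log2 -0.58 in MyS7KO and -0.44 in S7fl/fl) fell. Slc27a3 fell at day 3 (log2 -1.45 in MyS7KO and -2.11 in S7fl/fl), as did Slc10a6, described below. Both averaged under 1 FPKM at day 3 in both genotypes and met the rule through their higher groups, so their direction is tied to the rule.

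Of the 24 metal ion carriers 11 rose and 2 fell at day 3 in both genotypes. Slc39a14 (chr14:70303469-70351425, minus strand) encodes an importer of zinc, manganese and iron that inflammation induces in liver. Slc39a14 measured 3.55, 3.88 and 2.29 FPKM in the MyS7KO libraries at baseline, 18.3, 14.5, 10.8, 14.4 and 13.1 at day 3 and 6.64, 9.54, 5.33 and 4.62 at day 7. The Slc39a14 values of the S7fl/fl libraries were 3.02, 3.18 and 2.53 FPKM at baseline, 16.2, 18.9, 15.1, 17.5 and 11.9 at day 3 and 6.72, 16.9 and 8.02 at day 7. In each genotype the baseline libraries were lowest without overlap, and day 3 stood above day 7 on average, with 1 day 7 library of S7fl/fl cells within the range of day 3. The rise at day 3 came to log2 2.14 ± 0.30 in MyS7KO and 2.46 ± 0.31 in S7fl/fl cells, edgeR adjusted p = 4.5e-06 and 1.04e-06. Slc11a1 (chr1:74375195-74386062, plus strand) encodes the transporter that draws iron and manganese out of the phagosome of macrophages. Slc11a1 stood, in MyS7KO libraries, at 78.5, 76.3 and 82.5 FPKM at baseline, 142, 152, 114, 141 and 120.0 at day 3 and 116, 125, 106 and 109 at day 7. Slc11a1 in the S7fl/fl libraries was at 74.5, 69.6 and 59.1 FPKM at baseline, 136, 162, 142, 176 and 143 at day 3 and 123, 159 and 135 at day 7. Both later times were above baseline without overlap in each genotype (log2 0.76 ± 0.12 in MyS7KO and 1.17 ± 0.12 in S7fl/fl cells, edgeR adjusted p = 7.14e-06 and 2.18e-08 at day 3). The other zinc importers that rose at day 3 were Slc39a1, Slc39a6, Slc39a7, Slc39a8 and Slc39a11, with log2 changes between 0.52 and 1.78. Of these, Slc39a8 averaged under 1 FPKM at baseline in both genotypes, so its rise is a description. Slc39a11 averaged 3.52 ± 0.644, 11.1 ± 0.818 and 11.4 ± 2.46 FPKM in MyS7KO cells at baseline, day 3 and day 7, and 3.22 ± 0.143, 11 ± 0.393 and 11.3 ± 1.52 in S7fl/fl cells. Slc39a6 was at 13.2 ± 0.722 FPKM at day 3 against 6.18 ± 0.47 at baseline in MyS7KO cells, and at 12.4 ± 0.665 against 6.49 ± 0.334 in S7fl/fl cells (log2 1.10 ± 0.084 in MyS7KO and 0.95 ± 0.083 in S7fl/fl cells, edgeR adjusted p = 2.22e-10 and 2.1e-09). The copper importer gene Slc31a1 rose (1.97-fold in MyS7KO and 2.3-fold in S7fl/fl cells), and the zinc transporter genes of the secretory pathway Slc30a5 (log2 0.88 in MyS7KO and 0.78 in S7fl/fl) and Slc30a6 (log2 0.66 in MyS7KO and 0.54 in S7fl/fl) and the magnesium transporter gene Slc41a2 (log2 0.45 in MyS7KO and 0.83 in S7fl/fl) rose too. Slc41a1, a magnesium transporter (log2 -1.03 in MyS7KO and -0.94 in S7fl/fl), and Slc30a4, a zinc transporter of vesicles (log2 -0.67 in MyS7KO and -0.67 in S7fl/fl), fell. The exporters of iron and zinc at the plasma membrane were not called in either genotype at day 3. Slc40a1, ferroportin, averaged 5.61 ± 1.06 FPKM at day 3 and 4.9 ± 1.66 at baseline in MyS7KO cells, and 5.09 ± 1.65 and 4.57 ± 0.467 in S7fl/fl cells (log2 0.19 ± 0.23 in MyS7KO and 0.16 ± 0.23 in S7fl/fl cells, edgeR adjusted p = 0.465 and 0.548). Slc30a1, the zinc exporter of the plasma membrane, averaged 7.13 ± 0.847 and 7.88 ± 1.01 FPKM in MyS7KO cells, and 8.55 ± 1.38 and 7.38 ± 0.333 in S7fl/fl cells (log2 -0.14 ± 0.14 in MyS7KO and 0.22 ± 0.14 in S7fl/fl cells, edgeR adjusted p = 0.388 and 0.185). Slc11a2, Slc31a2, Slc39a10, Slc41a3 and Slc39a9 were not called there either. Among 14 tested genes of metal storage and handling 5 rose and 5 fell at day 3 in both genotypes, with a median log2 change of -0.29 in MyS7KO and 0.01 in S7fl/fl cells. Fth1, the ferritin heavy chain that stores iron, averaged 9989 ± 740.4 FPKM at day 3 against 2313 ± 127 at baseline in MyS7KO cells, and 9492 ± 1233 against 2466 ± 725 in S7fl/fl cells. Cp, the ferroxidase ceruloplasmin, averaged 0.721 ± 0.357 against 14.2 ± 0.56 FPKM in MyS7KO cells, and 0.698 ± 0.264 against 13.1 ± 1.33 in S7fl/fl cells. At day 7 over baseline 5 of the list rose and 4 fell. All genes tested gave 26.3% higher and 29.9% lower at day 3, and 19.3% and 18.2% at day 7 over baseline. Of the protein-coding genes over the threshold 37.4% rose and 25.3% fell at day 3.

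Haem and vitamin carriers were led by Slc48a1 (chr15:97778520-97792692, plus strand), which moves haem out of the phagolysosome after red cells are taken up. Of Slc48a1 the MyS7KO libraries held 22.6, 20.6 and 26 FPKM at baseline, 73.6, 74.8, 82.3, 75.6 and 85.1 at day 3 and 39.4, 60.8, 37.5 and 41.9 at day 7. For Slc48a1 the S7fl/fl libraries gave 21.3, 29.6 and 24.3 FPKM at baseline, 77.7, 66.8, 80.6, 72.3 and 96.9 at day 3 and 53, 73.8 and 69.1 at day 7. The baseline libraries were lowest without overlap in each genotype, and day 7 lay below day 3 without overlap in MyS7KO cells and overlapped it in S7fl/fl cells (log2 1.76 ± 0.16 in MyS7KO and 1.66 ± 0.16 in S7fl/fl cells, edgeR adjusted p = 2.52e-09 and 6.26e-09 at day 3 over baseline). Hdac7 overlaps Slc48a1 on the opposite strand with 844 counts per library on average, against 2817 of Slc48a1. The riboflavin transporter gene Slc52a2 (log2 1.27 in MyS7KO and 0.99 in S7fl/fl) and the reduced folate carrier gene Slc19a1 (log2 0.59 in MyS7KO and 0.45 in S7fl/fl) rose at day 3. Slc46a1, the proton-coupled folate transporter (log2 -0.51 in MyS7KO and -0.62 in S7fl/fl), the multivitamin transporter gene Slc5a6 (log2 -0.47 in MyS7KO and -0.38 in S7fl/fl), Slc23a3 (log2 -1.68 in MyS7KO and -1.85 in S7fl/fl) and the lysosomal carrier gene Slc46a3 (log2 -0.80 in MyS7KO and -0.69 in S7fl/fl) fell. Of these, Slc23a3 averaged under 1 FPKM at day 3 in both genotypes, so its fall is a description.

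Most mitochondrial carriers exchange metabolites across the inner membrane, and the class also holds Slc25a17, a peroxisomal member of the same family. Slc25a5 (chrX:36795651-36798807, plus strand) set the level of the class. Slc25a5 measured 124, 113 and 142 FPKM in the MyS7KO libraries at baseline, 252, 225, 203, 209 and 232 at day 3 and 122, 164, 148 and 155 at day 7. The Slc25a5 values of the S7fl/fl libraries were 127, 121 and 126 FPKM at baseline, 204, 242, 217, 212 and 204 at day 3 and 154, 174 and 171 at day 7. Day 3 was highest in each genotype, with no overlap with baseline or day 7 (log2 0.82 ± 0.11 in MyS7KO and 0.80 ± 0.11 in S7fl/fl cells, edgeR adjusted p = 6.08e-07 and 1.05e-06 at day 3 over baseline). Slc25a4, the ADP/ATP carrier of heart and muscle, was called in neither genotype (log2 0.19 ± 0.097 in MyS7KO and -0.05 ± 0.096 in S7fl/fl cells, edgeR adjusted p = 0.0856 and 0.688). Slc25a51, the mitochondrial NAD carrier, averaged 23.7 ± 1.29 FPKM at day 3 against 11.1 ± 0.419 at baseline in MyS7KO cells, and 22.9 ± 0.814 against 10.5 ± 0.626 in S7fl/fl cells (log2 1.10 ± 0.079 in MyS7KO and 1.13 ± 0.079 in S7fl/fl cells, edgeR adjusted p = 9.13e-11 and 6.75e-11). Slc25a39, required for glutathione import into mitochondria, rose by log2 1.55 in MyS7KO and 1.28 in S7fl/fl, Slc25a28, an iron importer, by log2 1.44 in MyS7KO and 1.37 in S7fl/fl, and Slc25a20, the carnitine/acylcarnitine carrier, by log2 1.33 in MyS7KO and 1.22 in S7fl/fl. The citrate carrier gene Slc25a1 (log2 1.30 in MyS7KO and 0.90 in S7fl/fl), the phosphate carrier gene Slc25a3 (log2 0.79 in MyS7KO and 0.72 in S7fl/fl) and the aspartate/glutamate carrier gene Slc25a13 (log2 1.04 in MyS7KO and 1.38 in S7fl/fl) rose as well. Other risers, among them Slc25a10, Slc25a11, Slc25a15, Slc25a22, Slc25a24, Slc25a33 and Slc25a44, changed by log2 0.32 to 1.08. Slc25a23, a calcium-dependent ATP-Mg/phosphate carrier, fell to 0.743 ± 0.0773 FPKM at day 3 against 2.48 ± 0.245 at baseline in MyS7KO cells, and to 0.711 ± 0.213 against 2.73 ± 0.414 in S7fl/fl cells (log2 -1.74 ± 0.18 in MyS7KO and -1.92 ± 0.18 in S7fl/fl cells, edgeR adjusted p = 2e-08 and 5.06e-09). Slc25a23 averaged under 1 FPKM at day 3 in both genotypes and met the rule through its higher groups, so its fall is a description and supports nothing. Slc25a25 (log2 -0.88 in MyS7KO and -0.85 in S7fl/fl), Slc25a32 (log2 -0.75 in MyS7KO and -0.71 in S7fl/fl) and Slc25a45 (log2 -0.73 in MyS7KO and -0.59 in S7fl/fl) also fell.

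Nucleoside and nucleotide sugar carriers moved both ways. The 7 that rose all belong to the Slc35 family, which feeds nucleotide sugars and other activated donors to the Golgi and the endoplasmic reticulum. Slc35b1 (chr11:95384692-95391776, plus strand) encodes the ATP/ADP exchanger of the endoplasmic reticulum. Slc35b1 stood, in MyS7KO libraries, at 10.3, 9.35 and 12.2 FPKM at baseline, 34.5, 27.9, 37.3, 36.4 and 37.8 at day 3 and 11.3, 16.3, 11.6 and 14 at day 7. Slc35b1 in the S7fl/fl libraries was at 9.78, 10.9 and 9.75 FPKM at baseline, 30.5, 28.4, 33.9, 27.7 and 34.7 at day 3 and 14.6, 18.6 and 15.5 at day 7. Day 3 stood above both other times without overlap in each genotype (log2 1.71 ± 0.13 in MyS7KO and 1.62 ± 0.13 in S7fl/fl cells, edgeR adjusted p = 3.51e-10 and 8.64e-10 at day 3 over baseline, and log2 -1.38 ± 0.12 in MyS7KO and -0.93 ± 0.13 in S7fl/fl cells, edgeR adjusted p = 2.14e-08 and 2.24e-05 at day 7 over day 3). Slc35b2, the carrier of the sulphate donor PAPS, and Slc35a2, Slc35a4, Slc35b4, Slc35c1 and Slc35c2 rose by log2 0.43 to 1.43. The 3 that fell act at the plasma membrane: Slc28a2, a sodium-coupled nucleoside transporter (log2 -1.40 in MyS7KO and -1.03 in S7fl/fl), Slc29a1, the equilibrative one (log2 -0.94 in MyS7KO and -0.97 in S7fl/fl), and Slc43a3, a purine nucleobase transporter (log2 -1.44 in MyS7KO and -1.51 in S7fl/fl).

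Among the 9 organic ion and amine carriers the creatine transporter had the highest level after infarction. Slc6a8, the creatine transporter, lies on the X chromosome (chrX:73673150-73682502, plus strand). Of Slc6a8 the MyS7KO libraries held 4.77, 5.19 and 4.15 FPKM at baseline, 29.9, 30.02, 30.4, 33.7 and 35.4 at day 3 and 33.2, 43.7, 27.6 and 27.8 at day 7. For Slc6a8 the S7fl/fl libraries gave 4.85, 5.61 and 4.5 FPKM at baseline, 34.6, 25.1, 34.2, 28.6 and 33.5 at day 3 and 24.7, 38.1 and 33.9 at day 7. Day 3 and day 7 lay far above baseline without overlap in each genotype and overlapped each other (log2 2.76 ± 0.17 in MyS7KO and 2.65 ± 0.17 in S7fl/fl cells, edgeR adjusted p = 7.99e-12 and 1.38e-11 at day 3, and log2 2.82 ± 0.17 in MyS7KO and 2.71 ± 0.18 in S7fl/fl cells, edgeR adjusted p = 2.04e-11 and 6.16e-11 at day 7). Slc22a4 (chr11:53983123-54028090, minus strand), the ergothioneine transporter, stayed under 1 FPKM in every baseline library and met the rule through its later levels. Its rise is therefore a description and supports nothing. Slc22a4 measured 0.79, 0.466 and 0.194 FPKM in the MyS7KO libraries at baseline, 8.88, 6.43, 3.55, 6.09 and 4.5 at day 3 and 4.45, 8.17, 3.03 and 2.02 at day 7. The Slc22a4 values of the S7fl/fl libraries were 0.469, 0.55 and 0.556 FPKM at baseline, 7.88, 8.89, 6.47, 7.46 and 4.76 at day 3 and 2.25, 6.93 and 4.75 at day 7. All later libraries were above all baseline libraries of their genotype (log2 3.61 ± 0.53 in MyS7KO and 3.76 ± 0.52 in S7fl/fl cells, edgeR adjusted p = 6.87e-06 and 3.82e-06 at day 3). Slc14a1, a urea transporter, reached 1 FPKM on average only in the baseline groups and met the rule through them, so its lower later levels are a description without a test. Slc14a1 stood, in MyS7KO libraries, at 4.57, 4.59 and 7.82 FPKM at baseline, 0.231, 0.42, 0.227, 0.232 and 0.411 at day 3 and 0.566, 0.607, 0.903 and 0.545 at day 7. Slc14a1 in the S7fl/fl libraries was at 4.8, 5.98 and 7.81 FPKM at baseline, 0.397, 0.353, 0.279, 0.297 and 0.172 at day 3 and 1.33, 0.673 and 0.813 at day 7. Baseline libraries were highest and day 3 libraries lowest, with no overlap between the times within a genotype. The same holds for Slc22a17, a receptor for lipocalin 2, which averaged 2.43 ± 0.125, 0.325 ± 0.0917 and 0.831 ± 0.275 FPKM in MyS7KO cells at baseline, day 3 and day 7, and 2.82 ± 0.47, 0.28 ± 0.0816 and 0.677 ± 0.237 in S7fl/fl cells. Slc18b1, a vesicular polyamine carrier, averaged 2.69 ± 0.182, 0.528 ± 0.096 and 0.629 ± 0.196 FPKM in MyS7KO and 2.55 ± 0.138, 0.416 ± 0.0744 and 0.356 ± 0.196 in S7fl/fl cells. It too reached 1 FPKM on average only at baseline, where its libraries were highest without overlap. Its day 7 mean lay above day 3 in MyS7KO cells and below it in S7fl/fl cells. Slc22a21 and Slc22a18 were under 1 FPKM on average at day 3. Slc22a5, the carnitine transporter, stayed over 1 FPKM in every group and fell at day 3 (log2 -1.13 ± 0.11 in MyS7KO and -1.37 ± 0.11 in S7fl/fl cells, edgeR adjusted p = 6.09e-09 and 3.74e-10).

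Several of the members that fell moved with markers of endothelial cells, another cell type of the heart, which the sort for CD11b+ cells should remove. All 10 endothelial markers fell at day 3 in both genotypes and 9 of 10 at day 7. Their median log2 change at day 3 was -1.655 in MyS7KO and -2.197 in S7fl/fl cells. Their summed FPKM was 260.0 to 555.5 at baseline, 98.6 to 169.8 at day 3 and 40.7 to 277.5 at day 7 in MyS7KO libraries, and 406.7 to 540.6, 68.0 to 158.4 and 51.1 to 119.8 in S7fl/fl libraries. None of the 10 was at 0 over all libraries. Slc9a3r2, a scaffold for sodium/proton exchange that endothelium is known to express, fell with them. Of Slc9a3r2 the MyS7KO libraries held 106, 74.9 and 41.1 FPKM at baseline, 21.1, 11.2, 21.1, 12.7 and 13.3 at day 3 and 18.2, 5.34, 35 and 13.7 at day 7. For Slc9a3r2 the S7fl/fl libraries gave 64.8, 79.4 and 69.2 FPKM at baseline, 17.8, 15, 9.13, 8.11 and 19.7 at day 3 and 17.9, 10.01 and 7.17 at day 7. Within MyS7KO cells at day 7 the highest value belonged to replicate 4, which had the highest endothelial sum of that group (277.5 FPKM), and the lowest to replicate 3, which had the lowest sum (40.7). Replicate 4 was also the highest of that group in summed cardiomyocyte (32.4 FPKM) and erythroid markers (19.6), and replicate 3 the lowest in both (6.12 and 2.29) and in fibroblast markers (223). The fall was log2 -2.22 ± 0.44 in MyS7KO and -2.34 ± 0.45 in S7fl/fl cells, edgeR adjusted p = 0.000249 and 0.000155 at day 3 over baseline. Slc26a10 measured 13, 14.8 and 8.33 FPKM in the MyS7KO libraries at baseline, 1.91, 0.822, 1.57, 1.41 and 1.13 at day 3 and 1.83, 0.665, 6.24 and 2.38 at day 7. The Slc26a10 values of the S7fl/fl libraries were 11.3, 17.5 and 16.9 FPKM at baseline, 3.16, 1.5, 1.42, 1.19 and 2.62 at day 3 and 2.1, 1.28 and 0.941 at day 7. The same replicates were again the highest and the lowest at day 7 in MyS7KO cells, and baseline lay above the later times without overlap. Slc26a10, an anion exchanger family gene, fell at day 3 (log2 -3.13 ± 0.48 in MyS7KO and -2.93 ± 0.47 in S7fl/fl cells, edgeR adjusted p = 1.55e-05 and 2.84e-05). B4galnt1 lies over Slc26a10 on the opposite strand with 1241 counts per library on average, against 396 of Slc26a10. Slc10a6, a carrier of sulphated steroids, showed the same order at day 7 in MyS7KO cells. Across the MyS7KO baseline replicates it ran the other way, with endothelial sums of 555.5, 446.0 and 260.0 FPKM beside the Slc10a6 values below. Across the S7fl/fl baseline replicates, with sums of 406.7, 536.7 and 540.6, both rose in the same order. Slc10a6 stood, in MyS7KO libraries, at 12.1, 12.5 and 13 FPKM at baseline, 1.33, 0.374, 1.02, 0.407 and 0.887 at day 3 and 0.985, 0.57, 2.48 and 1.16 at day 7. Slc10a6 in the S7fl/fl libraries was at 9.52, 10.1 and 12.9 FPKM at baseline, 1.31, 0.875, 0.309, 0.147 and 1.38 at day 3 and 2.25, 0.788 and 0.637 at day 7. In each genotype every later library was below every baseline library, and MyS7KO replicate 4 was the highest of its group at day 7 (log2 -3.96 ± 0.52 in MyS7KO and -3.72 ± 0.52 in S7fl/fl cells, edgeR adjusted p = 2.25e-06 and 4.97e-06 at day 3). Slc10a6 averaged under 1 FPKM at day 3 in both genotypes and met the rule through its higher groups, so its fall is a description and supports nothing. Slc5a3 stood at 4.04 FPKM in MyS7KO day 7 replicate 4 and at 2.99 in replicate 3, a narrower span. In bulk RNA fewer cells of a type and less RNA per cell cannot be told apart, and the part of RNA from endothelial or these other cells in these falls was not tested. At day 3, 11 of 12 cardiomyocyte, 5 of 5 erythroid and 6 of 10 fibroblast markers fell as well, with summed levels of 6.02 to 14.3, 1.79 to 7.49 and 66.2 to 148 FPKM at day 3 in MyS7KO libraries, against 30.4 to 36.3, 44.5 to 54.7 and 106.2 to 222.8 FPKM at baseline. Among the macrophage markers 4 of 13 rose and 5 fell at day 3, among neutrophil markers 1 of 10 rose and 4 fell, and among B and T cell markers 3 of 6 fell. Beside these marker counts, 26.3% of all genes tested rose and 29.9% fell at day 3 in both genotypes.

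**Figure D4:**
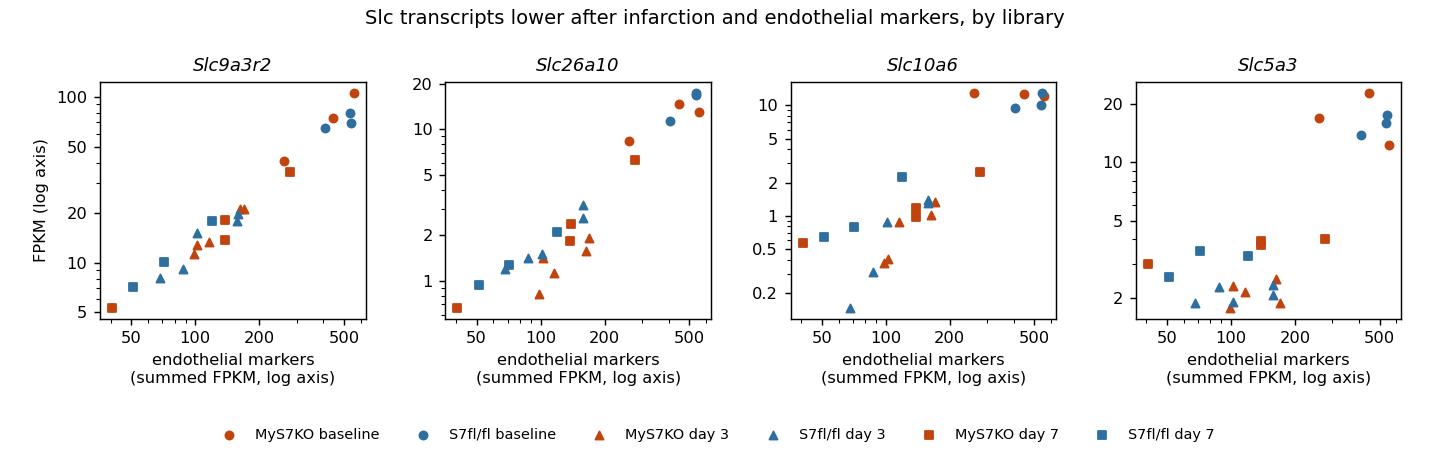
FPKM of Slc9a3r2, Slc26a10, Slc10a6 and Slc5a3 in each library against the summed FPKM of 10 endothelial markers (log axes), with colour for genotype and time. Baseline libraries (sums of 260.0 to 555.5 FPKM) lie at the upper right. Within day 7 of MyS7KO cells all 4 genes are highest in the library with a sum of 277.5, Slc5a3 with a narrower span.

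Inorganic ion carriers were mixed. Slc9a7 and Slc9a9 encode sodium/proton exchangers of endosomes and the Golgi and went opposite ways. Slc9a7, on the X chromosome, averaged 0.505 ± 0.0723, 1.96 ± 0.549 and 3.59 ± 1.1 FPKM in MyS7KO cells at baseline, day 3 and day 7, and 0.576 ± 0.268, 2.19 ± 0.284 and 3.56 ± 0.373 in S7fl/fl cells (log2 2.83 ± 0.30 in MyS7KO and 2.64 ± 0.30 in S7fl/fl cells, edgeR adjusted p = 1.03e-07 and 2.99e-07 at day 7 over baseline). Slc9a7 was under 1 FPKM on average at baseline and met the rule through its later levels, so its rise is a description and supports nothing. Slc9a9 averaged 28.4 ± 5.89, 12.1 ± 0.799 and 14.4 ± 3.21 FPKM in MyS7KO cells, and 25.6 ± 1.83, 12.8 ± 1.92 and 16.1 ± 2.08 in S7fl/fl cells (log2 -1.23 ± 0.14 in MyS7KO and -0.99 ± 0.14 in S7fl/fl cells, edgeR adjusted p = 1.28e-07 and 2.99e-06 at day 3). The other risers at day 3 were the scaffold gene Slc9a3r1 (log2 0.82 in MyS7KO and 0.64 in S7fl/fl), the mitochondrial sodium/calcium exchanger gene Slc8b1 (log2 0.68 in MyS7KO and 0.47 in S7fl/fl) and the potassium/chloride cotransporter gene Slc12a4 (log2 0.61 in MyS7KO and 0.63 in S7fl/fl). Slc12a2, the sodium/potassium/chloride cotransporter, fell (log2 -1.33 in MyS7KO and -1.44 in S7fl/fl), and the potassium/chloride cotransporter gene Slc12a7 and the phosphate importer genes Slc20a1 and Slc20a2 fell by less, with log2 changes from -0.67 to -0.21. Among the other or unassigned members Slc35e4, Slc35e1, Slc35f6, Slc10a3 and Slc10a7 rose (log2 0.18 to 1.02), and Slc35e2 and Slc7a6os fell (log2 -1.13 in MyS7KO and -1.12 in S7fl/fl for Slc35e2, log2 -0.46 in MyS7KO and -0.53 in S7fl/fl for Slc7a6os).

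From day 3 to day 7 some members returned towards baseline and a few moved for the first time. Among those that rose in both genotypes, Slc22a17 (log2 1.35 in MyS7KO and 1.26 in S7fl/fl), Slc14a1 (log2 1.10 in MyS7KO and 1.64 in S7fl/fl), Slc13a3 and Slc5a3 stayed below their baseline at day 7. Both Slc22a17 and Slc14a1 averaged under 1 FPKM at day 3 and day 7 and met the rule through their baseline levels. Their rises are descriptions and support nothing. Slc46a3, a lysosomal carrier, averaged 7.16 ± 1.22, 4.12 ± 0.51 and 9.29 ± 2.15 FPKM in MyS7KO cells at baseline, day 3 and day 7, and 6.85 ± 0.71, 4.24 ± 0.674 and 8.54 ± 2.51 in S7fl/fl cells (log2 1.18 ± 0.17 in MyS7KO and 1.02 ± 0.18 in S7fl/fl cells, edgeR adjusted p = 7.59e-06 and 0.00024 at day 7 over day 3). Slc26a11, Slc38a6 and Slc12a9 were not called at day 3 over baseline in either genotype and rose afterwards. Of Slc26a11 the MyS7KO libraries held 7.94, 8.53 and 9.14 FPKM at baseline, 9, 8.81, 9.45, 9.52 and 8.77 at day 3 and 17.3, 21.3, 15.2 and 17.2 at day 7. For Slc26a11 the S7fl/fl libraries gave 9.41, 9.36 and 7.69 FPKM at baseline, 9.82, 8.7, 9.25, 8 and 8.4 at day 3 and 13.1, 13.6 and 17 at day 7. Day 7 was above both other times without overlap in each genotype, and day 3 overlapped baseline. Slc26a11, an anion exchanger, rose from day 3 to day 7 by log2 0.97 ± 0.099 in MyS7KO and 0.73 ± 0.11 in S7fl/fl cells, edgeR adjusted p = 1.46e-07 and 3.64e-05. Slc38a6, of the neutral amino acid family, rose by log2 0.72 in MyS7KO and 0.85 in S7fl/fl, and Slc12a9, a cation/chloride cotransporter family gene, by log2 0.58 in MyS7KO and 0.60 in S7fl/fl. Among the 18 that fell were Slc16a3, Slc35b1, Slc7a8, Slc25a24, Slc7a1, Slc27a4, Slc39a6 and Slc16a1, all of which had risen at day 3. Slc25a24, an ATP-Mg/phosphate carrier, averaged 12.7 ± 1.27 FPKM at day 7 against 18.5 ± 1.36 at day 3 in MyS7KO cells, and 13 ± 1.01 against 19.4 ± 0.944 in S7fl/fl cells (log2 -0.53 ± 0.094 in MyS7KO and -0.57 ± 0.10 in S7fl/fl cells, edgeR adjusted p = 9.76e-05 and 0.000319). The counts of S7fl/fl cells in this comparison rest on few libraries: without S7fl/fl day 7 replicate 2, the library with the erythroid reads, 15 members rose and 11 fell in place of 23 and 23, and 14 fell without replicate 4. Without replicate 2 the falls of Slc7a1 (log2 -0.36, edgeR adjusted p = 0.186) and Slc16a1 (-0.37, 0.0533) and the rise of Slc5a3 (0.54, 0.0552) did not pass in S7fl/fl cells. Nor did the fall of Slc7a1 without replicate 4 (log2 -0.46, edgeR adjusted p = 0.105) or the rise of Slc5a3 without replicate 3 (0.48, 0.0646).

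Loss of Smad7 in myeloid cells is the question the genotype comparison addresses. edgeR called 0 of 177 members at baseline, at day 3 and at day 7, where 0.0121%, 0.0121% and 0.0181% of all genes tested were called, and limma-trend on the deposited FPKM also called 0. DESeq2 and limma-voom called 0 at baseline and day 3 and 1 member each at day 7. An unadjusted p under 0.05 was found for 3, 5 and 34 members, which is 1.69%, 2.82% and 19.2% of the members against 2.27%, 3.59% and 13.1% of all genes. The median absolute fold difference between genotypes was 1.074, 1.061 and 1.105 at baseline, day 3 and day 7. At baseline the lowest p-values were those of Slc52a2 (log2 -0.33), Slc25a1 (-0.33) and Slc41a2 (0.37), each with an edgeR adjusted p of 0.999. At day 3 they were those of Slc28a2 (-0.44), Slc25a18 (-0.71) and Slc37a3 (-0.24), each with an edgeR adjusted p of 0.982. Slc25a18, a mitochondrial glutamate carrier gene, held only 66.7 counts per library on average and lies opposite Atp6v1e1 with 3413, so its reads are uncertain.

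At day 7, 10 of the 34 members with an unadjusted p under 0.05 were higher and 24 lower in MyS7KO cells. Slc25a51 had the lowest p, at 14.7, 16.2, 13.4 and 15.2 FPKM in MyS7KO and 18.6, 20.3 and 17.1 in S7fl/fl cells. The MyS7KO libraries lay below all S7fl/fl libraries (log2 -0.35 ± 0.079, edgeR adjusted p = 0.159). Slc48a1 was at 39.4, 60.8, 37.5 and 41.9 FPKM in MyS7KO and 53, 73.8 and 69.1 in S7fl/fl cells, and the groups overlapped through 1 MyS7KO library (log2 -0.56 ± 0.15, edgeR adjusted p = 0.253). Slc39a10, a zinc importer, was at 6.71, 7, 6.41 and 5.61 FPKM in MyS7KO and 5.06, 4.39 and 4.82 in S7fl/fl cells, higher in every MyS7KO library (log2 0.41 ± 0.12, edgeR adjusted p = 0.257). Without MyS7KO day 7 replicate 3, Slc25a51 (log2 -0.39, edgeR adjusted p = 0.0396) and Slc48a1 (-0.74, 0.0275) passed. DESeq2 called Slc25a51 (log2 -0.33, adjusted p = 0.0222) and limma-voom called Slc48a1 (-0.68, 0.0336). All MyS7KO libraries of day 7 carried Xist reads and no S7fl/fl library did, so none of these differences can be told apart from a difference of sex.

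**Figure D5:**
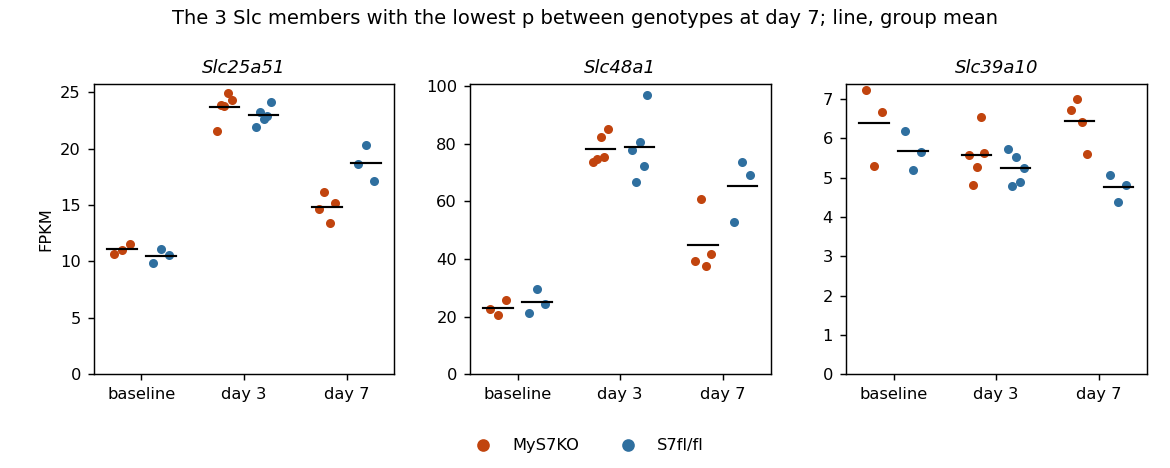
FPKM per library of Slc25a51, Slc48a1 and Slc39a10 in the 6 groups, with MyS7KO left of S7fl/fl at each time and a bar at the group mean. At day 7 Slc25a51 lies at 13.4 to 16.2 FPKM in MyS7KO and 17.1 to 20.3 in S7fl/fl libraries, and none of the 3 passed the edgeR test between genotypes.

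The differences of the time effects between the genotypes gave 0 called members as well, with 0% of all genes called for each of the 3 pairs of times by edgeR, 0 members by DESeq2, limma-voom and limma-trend, and unadjusted p-values under 0.05 for 7, 15 and 20 members. Those are 3.95%, 8.47% and 11.3% of the members, against 4.48%, 5.21% and 10.4% of all genes. Slc11a1 was among the 3 lowest p-values for both comparisons with baseline: its rise at day 3 was log2 0.76 in MyS7KO and 1.17 in S7fl/fl (difference -0.41, edgeR adjusted p = 0.878), and its rise at day 7 log2 0.53 in MyS7KO and 1.06 in S7fl/fl (difference -0.52, adjusted p = 0.877). Beside it stood Slc25a18 (-1.10) and Slc29a2 (-0.79) for day 3 over baseline, each with an edgeR adjusted p of 0.878, and Slc25a51 (-0.41) and Slc35a1 (0.54) for day 7 over baseline, each with 0.877. For day 7 over day 3 the lowest were Slc25a51 (-0.38) and Slc7a6os (-0.41), with an edgeR adjusted p of 0.416, and Slc2a6 (-0.70), with 0.442.

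Genes that work beside the members moved too. Of 29 tested partners and carriers outside the Slc names 16 rose and 4 fell at day 3 in both genotypes, and 15 rose and 3 fell at day 7 over baseline, with a median log2 change at day 3 of 0.65 in MyS7KO and 0.52 in S7fl/fl cells. Of the protein-coding genes over the threshold 37.4% rose and 25.3% fell at day 3, and 27.3% and 16.8% at day 7 over baseline. Over all genes tested these shares were 26.3% and 29.9%, and 19.3% and 18.2%. Emb, embigin, an accessory protein of monocarboxylate transporters, averaged 6.52 ± 0.353, 27.7 ± 2.35 and 16.7 ± 4.19 FPKM in MyS7KO cells at baseline, day 3 and day 7, and 7.23 ± 1.31, 30.7 ± 5.35 and 17.8 ± 3 in S7fl/fl cells. Slco2b1, an organic anion transporter of the other solute carrier naming scheme, averaged 42.9 ± 3.46, 4.73 ± 0.841 and 12.1 ± 1.43 FPKM in MyS7KO cells, and 37.6 ± 1.09, 4.01 ± 0.943 and 11 ± 3.79 in S7fl/fl cells. Mfsd12, a lysosomal cysteine importer, was at 23.6 ± 1.6 FPKM at day 7 against 5.21 ± 0.289 at baseline in MyS7KO cells, and at 20.4 ± 3.41 against 5.59 ± 0.899 in S7fl/fl cells. Npc1, the lysosomal cholesterol exporter, was at 25 ± 6.02 against 8.77 ± 0.546 FPKM in MyS7KO cells, and at 22.1 ± 2.97 against 7.34 ± 0.798 in S7fl/fl cells.

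For 22 members an overlapping gene held at least 10% of the member's count, on the opposite strand for 20 and on the same strand for 3. The labels do not say whether counting used strand, so reads of such pairs cannot be told apart with certainty, and among the members described above this touches Slc15a3, Slc39a11, Slc7a7, Slc31a1, Slc25a11, Slc25a25, Slc35a4, Slc20a2, Slc5a6, Slc19a1, Slc10a3, Slc39a9 and Slc4a1ap besides those already named.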

How the data were processed

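Poly(A) RNA of 23 cardiac macrophage libraries was sequenced as 150-bp read pairs on an Illumina NovaSeq after preparation with an NEBNext Ultra RNA kit, per the labels' protocols. TopHat2 2.0.9, Cufflinks 2.1.1 and HTSeq 0.6.1 and the builds mm10 and GRCm38.p6 are named in the submitters' processing notes, without their roles. The authors deposited a raw count per gene and library, and a table of FPKM per gene and library, which corrects for depth and gene length. Log2 changes were computed here from the deposited counts. Whether counting used strand is not given in the sources used here.

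Groups followed the labels, and all value columns were used. The deposited counts were tested with edgeR 4.0.16 in R 4.3.3: TMM scaling, removal of genes with low counts by filterByExpr, and a robust quasi-likelihood fit of 1 mean per group over all 23 libraries, with Benjamini-Hochberg adjustment over 16545 genes and a threshold of 0.05. All 177 members passed the filter. The fit was tested on simulated data. Levels in the text are deposited FPKM, with SD over libraries, and ± beside a log2 change is its standard error from the fit. Groups were said not to overlap when no FPKM value of one lay within the range of the other. DESeq2 1.42.0, limma 3.58.1 (voom with quality weights, and limma-trend on the FPKM as log2 with a pseudocount of 1 or 0.1), RLE scaling, no low-count filter, a replicate block, fits of only the groups compared, other FPKM thresholds and leaving out each library were the alternatives. A sex term and leaving out the libraries with reads of both sexes were added after seeing the data.

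Members were named when among the 10 with the highest mean FPKM, when highest or among the 2 called with the lowest p in a class, when among the 8 largest changes each way for a pair of times called in both genotypes without overlap, when among the 3 lowest p of a genotype comparison, or when next to the FPKM threshold. Others were named after their values were seen. A few members are counted but not reported by name here. The members and the gene lists were chosen with earlier results of these data known. Promoter windows came from RefSeq (GRCm38.p6), where 135 of the 177 members had an entry.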

Additional observations from a re-analysis of the deposited data

Results flagged for a closer look

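In 10 of 192 groups of 4 or 5 libraries of the members the rule names, 1 library stood far from the rest, and chance alone gives about 1 in 20. In MyS7KO cells at day 3, replicate 3 was low for Slc37a2 (35.3 FPKM, others 41.6 to 44) and Slc28a2 (9.98, others 12.5 to 13.6) and high for Slc29a2 (1.64, others 0.875 to 0.973). Replicate 5 of that group was high for Slc39a6 (14.5 FPKM, others 12.7 to 13.1) and Slc46a3 (5.02, others 3.76 to 4.02). Replicate 1 was low for Slc35b2 (36 FPKM, others 52.4 to 57.1), replicate 4 low for Slc35e4 (17.2, others 20.5 to 21.7) and replicate 2 high for Slc22a18 (0.936, others 0.533 to 0.644). In S7fl/fl cells at day 3, replicate 5 was low for Slc9a7 (1.7 FPKM, others 2.21 to 2.37) and replicate 4 high for Slc25a24 (21, others 18.7 to 19.4). MyS7KO replicates 2 and 3 and S7fl/fl replicate 4 of day 3 are the libraries with reads of both sexes, and the part of that in these values was not tested.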

How the results depend on the processing

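The alternatives were run on the counts of members and on 144 comparisons of 52 members, which the rule named for a change or a low p-value. They were not run on members that the rule named by level or threshold alone, nor on other members named in the text. None of the 144 comparisons changed direction, and 2752 of the 2767 values of single members kept their side of the threshold. Leaving out 1 library at a time gave 69 to 74 members higher and 36 to 41 lower in both genotypes at day 3 over baseline, and 63 to 69 higher and 24 to 31 lower at day 7 over baseline. The day 7 over day 3 counts moved most: 15 to 22 members higher and 11 to 22 lower in S7fl/fl cells, and 8 to 19 lower in both genotypes. With no low-count filter 14 members were lower in S7fl/fl cells and 10 in both genotypes there, where the cause was not tested. For the genotype effect at day 7 DESeq2 called 1 member and limma-voom 1, and leaving out a library gave 0 to 2. Over the alternatives the adjusted p ran from 0.0222 to 0.805 for Slc25a51 and from 0.0275 to 0.805 for Slc48a1. Slc14a1 (log2 0.34, adjusted p = 0.0516 in limma-trend) and Slc5a3 (log2 0.46, adjusted p = 0.0831 in limma-voom) missed the threshold at day 7 over day 3, in MyS7KO and in S7fl/fl cells. Samples that share a replicate number did not deviate together (27 pairs, r from -0.3 to 0.256, 9 over 0.1, own number best in 9), so the numbers were not taken as pairs. With the replicate block 76 members were higher and 40 lower in both genotypes at day 3 over baseline, 68 and 29 at day 7 over baseline and 17 and 17 at day 7 over day 3, with 0 called between genotypes. With a sex term the counts in both genotypes were 70 and 40, 61 and 26, and 17 and 14, and without the libraries with reads of both sexes 74 and 36, 71 and 26, and 14 and 16. An FPKM threshold of 0.5 gave 196 members and one of 2 gave 149. Counting error weighs most on the low members, whose lowest median count per library was 29.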
